A study of Homo sapiens with 8 samples.

Results

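The eIF3 octamer is the core of eukaryotic initiation factor 3, and the 8 genes described here encode its subunits: EIF3A, EIF3C, EIF3E, EIF3F, EIF3H, EIF3K, EIF3L and EIF3M. They were chosen by name, as the eIF3 subunits built on a PCI or an MPN domain. All 8 were among the 19305 transcript accessions counted, and all 8 passed the filter on low counts that left 14565 genes for testing. The question was whether transcripts of 1 complex moved together when another initiation factor, eIF2A, was knocked down.

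eIF3 binds the small ribosomal subunit, helps to recruit the initiator tRNA complex and the mRNA, and keeps the large subunit from joining too early. Its octamer is assembled from PCI subunits (A, C, E, K, L and M) and a pair of MPN subunits (F and H), the same plan as the lid of the proteasome and the COP9 signalosome. EIF3B, EIF3D, EIF3G, EIF3I and EIF3J are attached to this core. EIF2A encodes a single-chain protein able to deliver initiator tRNA to ribosomes, distinct from the trimeric factor eIF2.

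Polyadenylated RNA was sequenced from 2 human cell lines, with 2 libraries in each of 4 groups. HEK293T, an embryonic kidney line, carried an eIF2A siRNA or a control siRNA, and all 4 of its libraries came from cells treated with sodium arsenite, an oxidative stressor. H9, an embryonic stem cell line, carried an eIF2A shRNA or a control shRNA, with no arsenite named. Line, arsenite and kind of small RNA therefore changed together, and their parts in any difference between the lines cannot be told apart. Since the labels do not state that the libraries of a group were separate cultures, the p-values speak only to the spread among these libraries, which may be technical.

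Reads counted to genes ranged from 21837052 to 32318668 per library. EIF2A itself, in CPM (counts relative to library size, scaled by TMM), measured 5.58 and 5.98 in HEK293T with eIF2A siRNA, against 17.5 and 18.3 with control siRNA. In H9 it measured 5.03 and 4.67 with eIF2A shRNA, against 15.8 and 14.8 with control shRNA. On the log2 scale the target fell by 1.63 ± 0.095 (SE) in HEK293T and by 1.66 ± 0.11 in H9, and its groups overlapped in neither line. Chi-square per degree of freedom between replicates, where 1 is sampling noise alone, was 1.82 for HEK293T with eIF2A siRNA and 5.17 for HEK293T with control siRNA. It was 1.35 for H9 with eIF2A shRNA and 1.53 for H9 with control shRNA, so the HEK293T control pair differed most. All 6 pluripotency markers were detected in H9, and their summed level was 4707.9 and 4776.8 CPM with eIF2A shRNA, against 5058.1 and 5095.1 CPM with control shRNA. Single markers went both ways, with L1TD1 at 147.6 and 142.4 CPM and SOX2 at 113.5 and 117.6 CPM with eIF2A shRNA, against 73.7 and 70.6 CPM and 86.5 and 80.6 CPM with control shRNA. POU5F1 was at 140.8 and 114.3 CPM with eIF2A shRNA and 162.1 and 195.4 CPM with control shRNA. In HEK293T libraries the same list summed to between 136.6 and 150.7 CPM, nearly all of it DNMT3B, with NANOG and L1TD1 at 0. The 5 HEK293T markers summed to between 196.3 and 226.2 CPM in that line and to between 12.4 and 20.9 CPM in H9. In H9, the lineage markers SOX17, GATA4, GATA3 and PAX6 were each at or under 0.309 CPM in every library, as was TBXT, while SOX1 lay between 2.74 and 5.48 CPM and MIXL1 between 1.39 and 2 CPM. KRT7, a trophoblast marker, was at 16.7 and 16.0 CPM in H9 with eIF2A shRNA and at 25.6 and 26.1 CPM with control shRNA. THY1, listed as a fibroblast marker and also present on embryonic stem cells, was at 591.8 and 594.2 CPM with eIF2A shRNA and at 788.4 and 794.1 CPM with control shRNA. COL1A1, the other fibroblast marker, was at 118.4 and 123.5 CPM with eIF2A shRNA and at 88.7 and 87.7 CPM with control shRNA. Reads with no feature made up 20.84% and 20.63% of the H9 eIF2A shRNA libraries and 18.84% and 18.39% of the H9 control shRNA libraries. The part of these marker and library differences in the results below was not tested.

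Levels of the 8 transcripts were first compared with each other in TPM, which divides counts by length before scaling to a common total. EIF3K, a small PCI subunit at the edge of the core, had the highest level of the 8 in every library, at 721.1 ± 9.9 TPM (SD, n = 2 libraries in this and each following group) in HEK293T with eIF2A siRNA and 821.5 ± 20.9 TPM with control siRNA. In H9 it averaged 846.5 ± 17.4 TPM with eIF2A shRNA and 965 ± 1.34 TPM with control shRNA. EIF3F, an MPN subunit, came next, at 481 ± 6.08 TPM with eIF2A siRNA and 476.8 ± 4.67 TPM with control siRNA in HEK293T. In H9 it stood at 587.8 ± 6.15 TPM with eIF2A shRNA and 633.4 ± 3.32 TPM with control shRNA. EIF3L, the PCI partner of EIF3K, followed at 328.4 ± 3.25 TPM with eIF2A siRNA and 348.6 ± 14.3 TPM with control siRNA in HEK293T. Its H9 levels were 547.3 ± 12.4 TPM with eIF2A shRNA and 468.6 ± 2.76 TPM with control shRNA. EIF3L was thus higher in TPM in both H9 knockdown libraries than in both controls, although its TMM-scaled CPM, on which the test rests, was lower. TPM uses no TMM factor, and those factors were 1.08 in both H9 eIF2A shRNA libraries and 0.931 and 0.923 in the H9 control shRNA libraries. The direction of EIF3L in H9 therefore turned with the scaling. EIF3C turned in the same way (1.24 TPM with eIF2A shRNA and 1.09 TPM with control shRNA in H9), on few reads. The first 3 places were the same in all 8 libraries, whether transcript or coding length was used. EIF3E, EIF3H and EIF3M lay between 39.8 and 144.6 TPM as group means, and their order among themselves depended on the length used.

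EIF3A, the large scaffold subunit on which the core is built, was second lowest per length in every library. It averaged 8.81 ± 0.184 TPM in HEK293T with eIF2A siRNA and 9.87 ± 0.325 TPM with control siRNA. In H9 it averaged 32.6 ± 0.919 TPM with eIF2A shRNA and 9.5 ± 0.7 TPM with control shRNA. The ratio of EIF3K to EIF3A in TPM was 81.4 and 82.3 in the HEK293T eIF2A siRNA libraries and 83.7 and 82.8 in the HEK293T control siRNA libraries. In H9 the ratio was 25.1 and 26.9 with eIF2A shRNA and 96.6 and 107 with control shRNA. Subunits of a complex that is thought to hold 1 copy of each thus differed widely in measured transcript level, and in H9 the ratio of EIF3K to EIF3A was lower in both knockdown libraries than in both controls. The transcripts differ in length and GC content, at 6646 nt and 43.2% for EIF3A and 864 nt and 54.2% for EIF3K. The H9 trend of the change on GC content and length, described below, had a log2 value of 0.9 at EIF3A and -0.45 at EIF3K. Its part in the ratio was not tested.

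**Figure D1:**
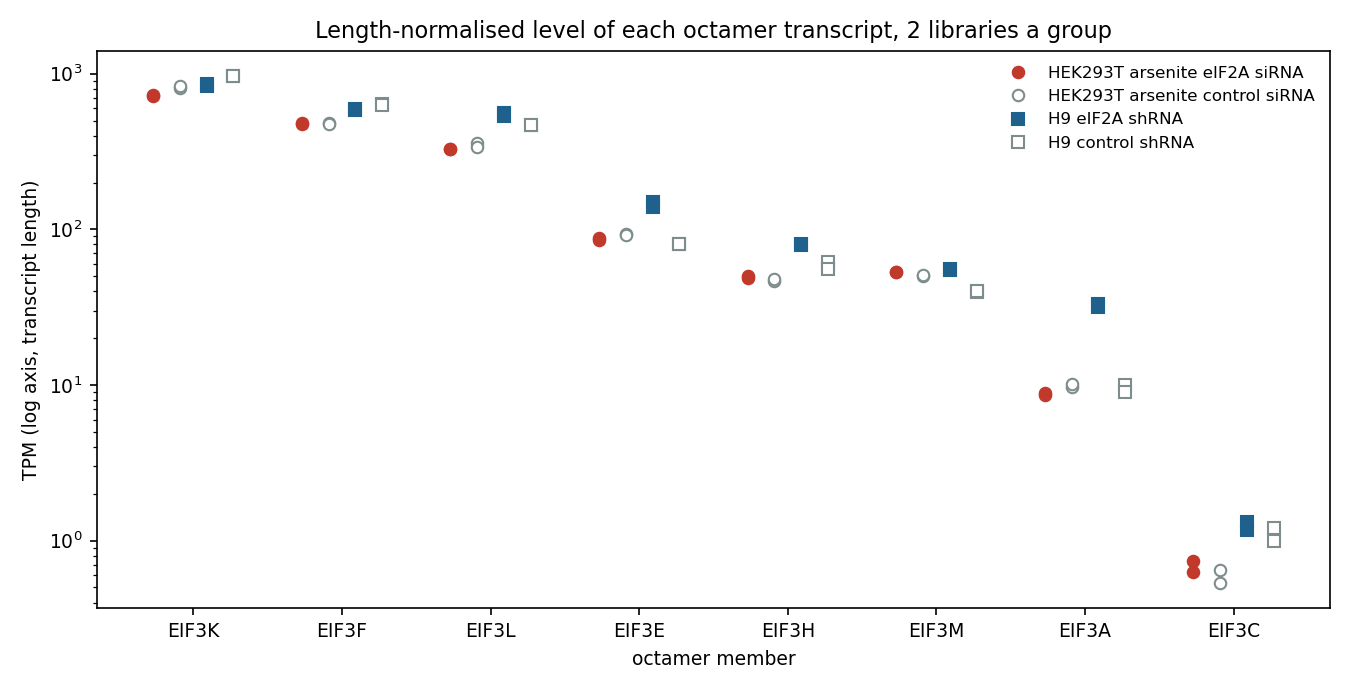
Level of each octamer transcript in TPM (log axis, transcript length), 1 point per library, for HEK293T with arsenite and eIF2A siRNA or control siRNA and for H9 with eIF2A shRNA or control shRNA. EIF3K is highest and EIF3C lowest throughout, and EIF3A stands at 32.6 TPM in H9 with eIF2A shRNA against 9.5 TPM in its control group.

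EIF3C, the other scaffold subunit and the docking site of several initiation factors, could hardly be measured. Only 32 and 37 reads were assigned to it in HEK293T with eIF2A siRNA and 21 and 36 with control siRNA, and 49 and 40 in H9 with eIF2A shRNA against 47 and 37 with control shRNA. Of all 50-base windows of its transcript, 90.1% also occur in transcripts of EIF3CL, its near-identical copy, and 98.7% of EIF3CL windows occur in EIF3C. Reads that aligned to more than 1 place had been set aside by the authors' counting, so the counts of EIF3C and EIF3CL are uncertain. EIF3CL had between 643 and 973 reads per library, far more than EIF3C, although a smaller share of its windows was its own. How reads were divided between the 2 genes was not tested. EIF3CL lay between 26.6 and 35.4 CPM in all 8 libraries and was called in neither line. The levels given here for EIF3C are not comparable with those of the other members.

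Transcription start sequences were available in the RefSeq promoter table (GRCh38.p14) for 4 of the 8 members. They are shown because many mRNAs of the translation machinery begin with a C followed by a run of pyrimidines, the terminal oligopyrimidine (TOP) start by which mTOR signalling controls their translation. Each window runs 5′ to 3′ on the plus strand from 10 bases before the annotated start base to 20 bases from it on, at chr11:7987327-7987356 for EIF3F, chr19:38619178-38619207 for EIF3K, chr11:32583821-32583850 for EIF3M and chr16:28688548-28688577 for EIF3C. Capitals mark an unbroken pyrimidine run that opens with a C at the start base.
EIF3F: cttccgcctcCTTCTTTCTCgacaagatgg
EIF3K: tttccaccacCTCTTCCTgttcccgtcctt
EIF3M: gcccagttccCTTTTCCggtcggcgtggtc
EIF3C: tcccacccccgtggcaggcagccctgcacc
EIF3F, EIF3K and EIF3M carried such a run, of 10, 8 and 7 bases, and EIF3C did not at its annotated base. A run of at least 5 bases from a C at the start base was present in 4.1% of the 34943 promoters in the table and in 5.2% of the 11655 that belong to genes tested here. When the run could begin within 5 bases of the start base on either side, EIF3C had one as well. Its run ended before the annotated start base, outside the annotated transcript. By that wider rule a run was far more common, in 21.1% of all promoters and 22.7% of those of tested genes. An ETS core (CCGGAAG, both strands) was found once in the 300-base promoter of EIF3M and in none of the other 3, against 10.2% of all promoters and 17.5% of those of tested genes. A YY1 core (AAGATGGC, both strands) was found once in EIF3F, against 2.9% of all promoters and 4.9% of those of tested genes. In H9 as measured, EIF3F (-0.45) and EIF3K (-0.53) were lower and EIF3M (0.13) was higher. All 3 had negative changes there with DESeq2's size factors (-0.61, -0.69 and -0.032), and likewise once the GC and length trend was removed (-0.035, -0.077 and -0.85).

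In arsenite-treated HEK293T cells, eIF2A knockdown left the octamer transcripts close to their control levels: 3 of 8 were called lower (EIF3A, EIF3K and EIF3L), none was called higher, and 5 were not called. Calls rest on the edgeR quasi-likelihood test, with Benjamini-Hochberg adjustment over the 14565 genes and a threshold of 0.05. In this comparison 28.7% of all genes were called, 14.1% higher and 14.7% lower, and the largest change of a called member was by 0.19 on the log2 scale. The median log2 fold change of the members was -0.036, with a range of -0.19 to 0.19, against a median of -0.0032 over all genes tested. The top of that range was EIF3C, on few reads, and without it the median of the members was -0.084. In bulk libraries, fewer cells of a type and less RNA per cell cannot be told apart.

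Among the scaffold subunits, EIF3A measured 32.9 and 31.9 CPM in HEK293T with eIF2A siRNA and 34.8 and 37.8 CPM with control siRNA. Both knockdown libraries lay below both controls, and the log2 fold change was -0.17 ± 0.058 (adjusted p = 0.024, edgeR). This call was lost without eIF2A siRNA replicate 1 (adjusted p = 0.062), without eIF2A siRNA replicate 2 (adjusted p = 0.18) and without control siRNA replicate 2 (log2 fold change -0.10, adjusted p = 0.30). EIF3C measured 1.09 and 1.28 CPM with eIF2A siRNA and 0.915 and 1.13 CPM with control siRNA. Its groups overlapped, with a log2 fold change of 0.19 ± 0.27 (adjusted p = 0.67, edgeR).

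Of the PCI subunits E, K and L, EIF3K showed the clearest change, with 348.8 and 340.7 CPM with eIF2A siRNA and 379.3 and 406.1 CPM with control siRNA. Its groups did not overlap, and its log2 fold change of -0.19 ± 0.034 (adjusted p = 3.6e-05, edgeR) stayed between -0.23 and -0.14 and called with each library left out in turn. EIF3L measured 378.1 and 381.8 CPM with eIF2A siRNA and 408 and 397.8 CPM with control siRNA. Its groups did not overlap either, but the log2 fold change of -0.084 ± 0.031 (adjusted p = 0.038, edgeR) lost its call in 7 of the 8 fits that left out 1 library, namely all but the one without control siRNA replicate 2, with adjusted p between 0.067 and 0.20. EIF3E, the subunit known as INT6 from mouse tumour virus integration, measured 75.1 and 73.3 CPM with eIF2A siRNA and 78.7 and 79.3 CPM with control siRNA. Both knockdown libraries were lower, and the log2 fold change of -0.091 ± 0.043 was not called (adjusted p = 0.12, edgeR).

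The remaining module holds the MPN pair F and H and the PCI subunit M. EIF3F, whose protein has been linked to deubiquitination, measured 331.5 and 336 CPM with eIF2A siRNA and 327.5 and 333.8 CPM with control siRNA. Its groups overlapped, with a log2 fold change of 0.013 ± 0.031 (adjusted p = 0.81, edgeR). EIF3H measured 107.2 and 109.8 CPM with eIF2A siRNA and 100.1 and 106.5 CPM with control siRNA, without overlap, and was not called (0.068 ± 0.043, adjusted p = 0.26, edgeR). EIF3M, the PCI subunit that joins F and H, measured 148.6 and 148.5 CPM with eIF2A siRNA and 137.3 and 144.4 CPM with control siRNA. Both knockdown libraries were higher and the change of 0.075 ± 0.037 was not called (adjusted p = 0.13, edgeR), but it was called without control siRNA replicate 2 (0.12, adjusted p = 0.022).

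**Figure D2:**
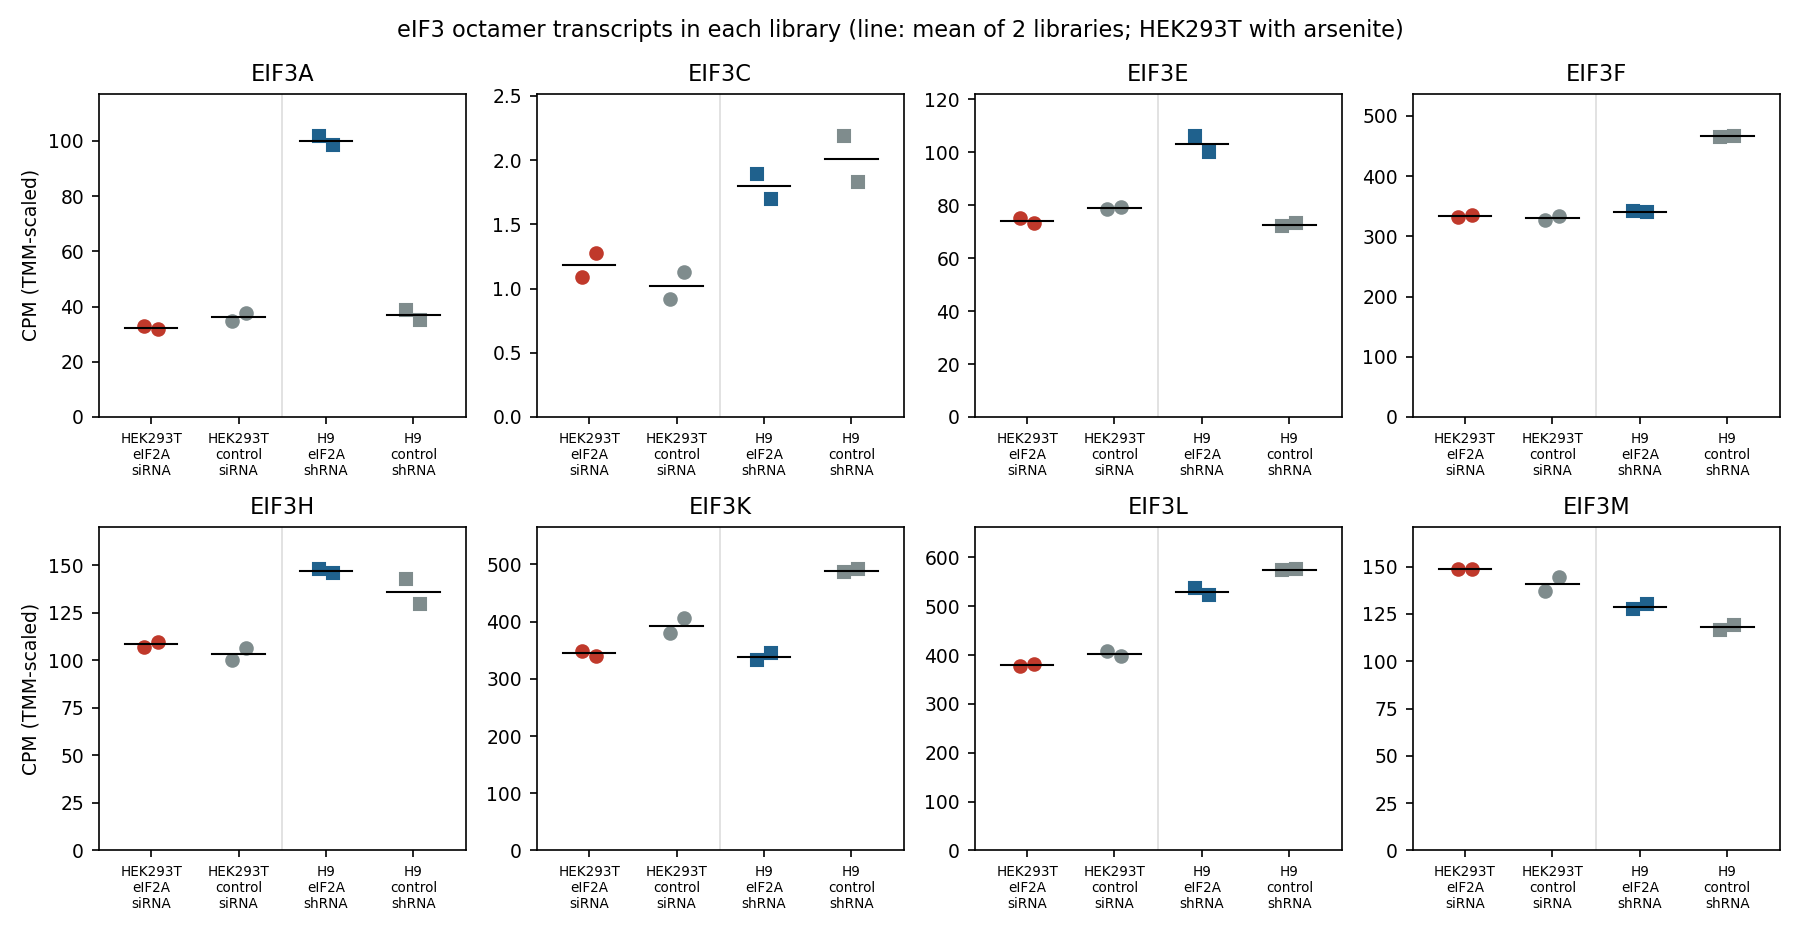
TMM-scaled CPM of each octamer transcript in every library, with the eIF2A knockdown group left of its control in each line and a bar at the mean of 2 libraries. In H9, EIF3A and EIF3E stand higher and EIF3F and EIF3K lower in both knockdown libraries than in both controls, while in HEK293T the groups lie close together.

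As measured in H9 cells, the transcripts of the complex did not move together when eIF2A was knocked down. With TMM scaling, EIF3A was 2.7-fold and EIF3E 1.42-fold of the control level, and EIF3F fell to 0.732 and EIF3K to 0.692 of it. EIF3H, EIF3L and EIF3M changed by little on that scale. In all, 4 members were called higher (EIF3A, EIF3E, EIF3H and EIF3M), 3 were called lower (EIF3F, EIF3K and EIF3L) and EIF3C was not called. With DESeq2's size factors EIF3H and EIF3M changed sign, to -0.05 and -0.032, so that 2 were called higher. In TPM, which uses no TMM factor, the shift went the other way. EIF3H (80.2 TPM with eIF2A shRNA against 58.6 with control shRNA) and EIF3M (55.1 against 39.8) were clearly higher. Only EIF3F (587.8 against 633.4) and EIF3K (846.5 against 965) had lower group means with knockdown in TPM. The test called 71.3% of all genes in H9, 37% higher and 34.3% lower, and being called did not set the members apart. Their median log2 fold change was -0.0046, near the 0.024 over all genes, while they ranged from -0.53 to 1.43 with an SD of 0.63 across members, against an SD of 0.76 across all genes. Without EIF3C, which had few reads, the median of the members was 0.11 and their SD 0.67.

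EIF3A measured 101.9 and 98.4 CPM in H9 with eIF2A shRNA and 38.8 and 35.3 CPM with control shRNA. Knockdown and control libraries were far apart, with the knockdown pair higher, and the log2 fold change was 1.43 ± 0.053 (adjusted p = 6.7e-22, edgeR), between 1.37 and 1.5 with each library left out in turn. EIF3C had 1.89 and 1.70 CPM with eIF2A shRNA and 2.19 and 1.83 CPM with control shRNA, overlapped and was not called (-0.16 ± 0.24, adjusted p = 0.56, edgeR). The scaffold subunits could therefore not be compared with each other.

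EIF3E measured 106.3 and 100.3 CPM with eIF2A shRNA and 72.0 and 73.3 CPM with control shRNA. The knockdown pair lay above the controls, with a log2 fold change of 0.51 ± 0.044 (adjusted p = 2.3e-12, edgeR). EIF3K, in the same module, went the other way, with 332.6 and 344.5 CPM with eIF2A shRNA and 486.3 and 491.7 CPM with control shRNA. Its groups did not overlap, and its log2 fold change was -0.53 ± 0.034 (adjusted p = 8.1e-16, edgeR). EIF3L measured 536.6 and 522.7 CPM with eIF2A shRNA and 573.4 and 576 CPM with control shRNA. Both knockdown libraries were lower, by a smaller amount than for EIF3K (-0.12 ± 0.031, adjusted p = 0.00092, edgeR), and this call was lost under upper-quartile scaling (-0.047, adjusted p = 0.19).

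EIF3F measured 342.7 and 339.6 CPM with eIF2A shRNA and 464.5 and 467.1 CPM with control shRNA. The knockdown pair lay below the controls, with a log2 fold change of -0.45 ± 0.031 (adjusted p = 6.2e-15, edgeR). EIF3H, its MPN partner, measured 147.9 and 145.7 CPM with eIF2A shRNA and 142.7 and 129.5 CPM with control shRNA. The groups did not overlap, but the change of 0.11 ± 0.042 (adjusted p = 0.022, edgeR) lost its call without eIF2A shRNA replicate 1 (0.095, adjusted p = 0.13) and without control shRNA replicate 2 (0.04, adjusted p = 0.50). EIF3M measured 127.5 and 130.1 CPM with eIF2A shRNA and 116.5 and 119.2 CPM with control shRNA. Both knockdown libraries were higher (0.13 ± 0.039, adjusted p = 0.0042, edgeR), a call that was lost without control shRNA replicate 1 (0.11, adjusted p = 0.054). As measured, neither module thus went one way: E was higher while K and L were lower, and F was lower while H and M were slightly higher. This split depended on the processing, since H and M were slightly lower with DESeq2's size factors, and all 6 of these members had negative changes once the GC and length trend described next was taken out.

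The direction in H9 ran with the base composition of the transcripts. The 4 members called higher had transcript GC contents of 38.0% (EIF3M), 38.2% (EIF3E), 40.2% (EIF3H) and 43.2% (EIF3A), and the 3 called lower had 48% (EIF3L), 54.2% (EIF3K) and 54.8% (EIF3F). The same slope ran through the whole transcriptome: the median log2 fold change in H9 was 0.85 for the 4537 genes under 45% GC, -0.10 for the 7272 genes at 45% to 60% and -0.40 for the 2680 genes over 60%. Across 14489 genes of the same libraries, which are not independent replicates, Spearman's rho of the H9 change was -0.68 with GC content and 0.44 with length, and in HEK293T it was -0.10 and -0.094. EIF3A and EIF3E thus moved in the direction of the bulk of low-GC genes, and EIF3F and EIF3K in that of GC-rich genes. EIF3H and EIF3M, at 0.11 and 0.13, stood well below the 0.85 median of genes with like GC content. What made the slope was not tested.

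**Figure D3:**
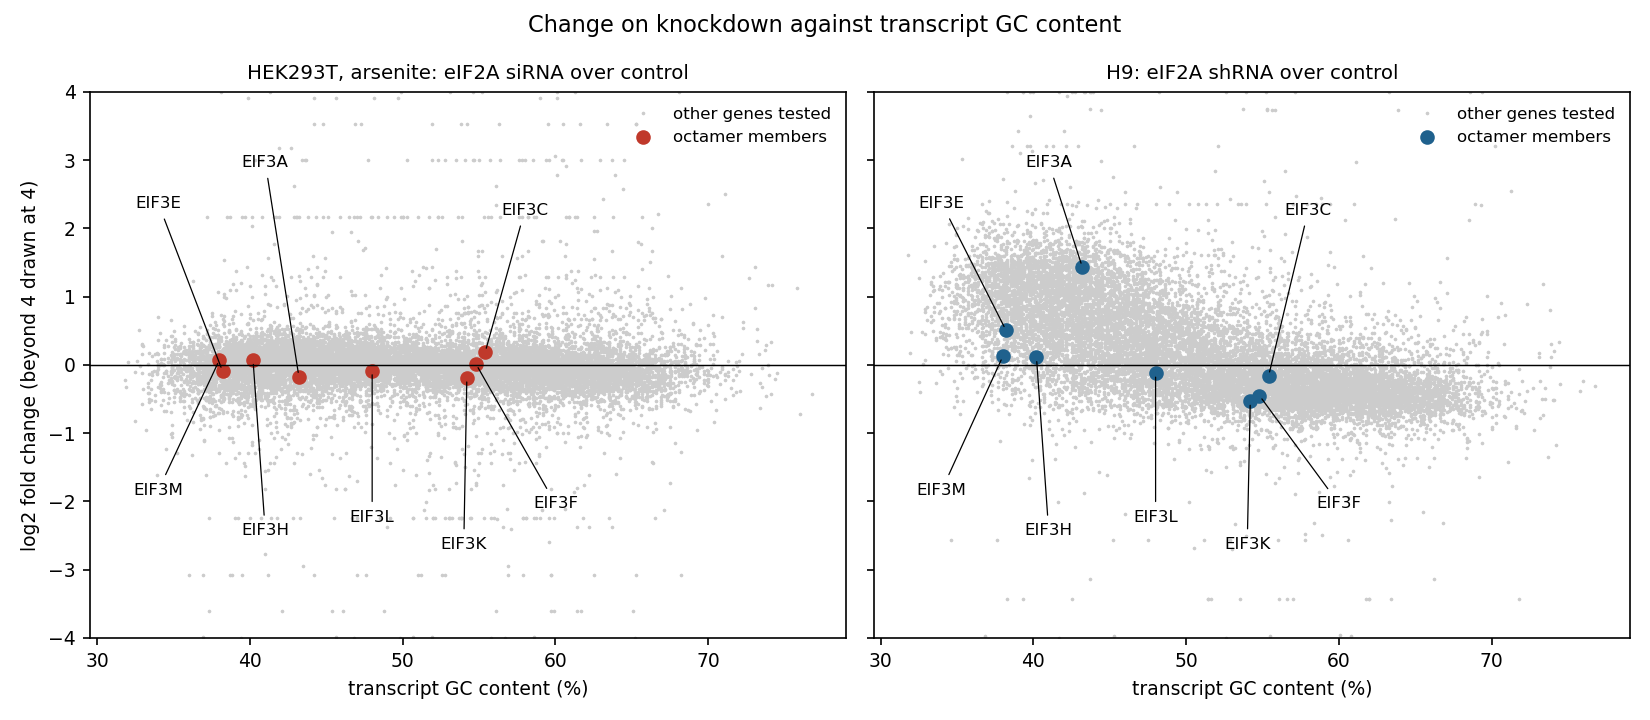
Log2 fold change on eIF2A knockdown against transcript GC content (%), for the octamer members (large points) and the other genes tested (small points), in HEK293T with arsenite and in H9. In H9 the cloud slopes down with a rho of -0.68, EIF3A lies above and EIF3M and EIF3H lie below the 0.85 median of genes under 45% GC, while in HEK293T the cloud is flat.

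Removing each library's smooth trend on GC content and length moved all 8 members in H9 and left another pattern. EIF3A was still higher, at 0.53 ± 0.052 (adjusted p = 3.7e-11, edgeR), and it was the only member called higher. EIF3M (-0.85 ± 0.039, adjusted p = 2.6e-20) and EIF3H (-0.75 ± 0.038, adjusted p = 4.3e-19) turned from slightly higher to the lowest of the members. EIF3L was at -0.27 ± 0.030 (adjusted p = 1.8e-09) and EIF3K at -0.077 ± 0.031 (adjusted p = 0.033), both called lower. EIF3E (-0.085 ± 0.045, adjusted p = 0.12), EIF3F (-0.035 ± 0.030, adjusted p = 0.35) and EIF3C (0.012 ± 0.24, adjusted p = 0.98) were not called. In this fit 49.8% of all genes were called, 21.9% higher and 27.9% lower, the median of the members was -0.081 and that of all genes -0.013. The annotated transcripts of EIF3H (3959 nt, of which 1056 nt coding) and EIF3M (5051 nt, of which 1122 nt coding) have long noncoding parts, so the trend taken from coding GC content and length was tried as well, after the first results were known. With it, EIF3A was again the only member called higher, at 0.57 (adjusted p = 1.1e-12), and 6 members were called lower, from -0.67 for EIF3M to -0.26 for EIF3F. That fit called 54.7% of all genes, 23.2% higher and 31.5% lower. EIF3A was called higher in H9 in every fit run. The members other than EIF3A and EIF3C were all lower once the trend of either kind was taken out, though not all of them were called, and the spread among the 8 was still an SD of 0.44 (0.38 with the coding trend).

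In HEK293T, where the trend moved no member by more than 0.053, its removal left EIF3A (-0.17), EIF3K (-0.22) and EIF3L (-0.14) lower. EIF3E joined them at -0.11 ± 0.044 (adjusted p = 0.049, edgeR) and EIF3M was called higher at 0.12 ± 0.037 (adjusted p = 0.013, edgeR). In that fit 27.8% of all genes were called, 14.9% higher and 12.9% lower. The coding trend gave 2 calls lower (EIF3K and EIF3L) and none higher, in a fit that called 27.1% of all genes, 14.2% higher and 12.9% lower.

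**Figure D4:**
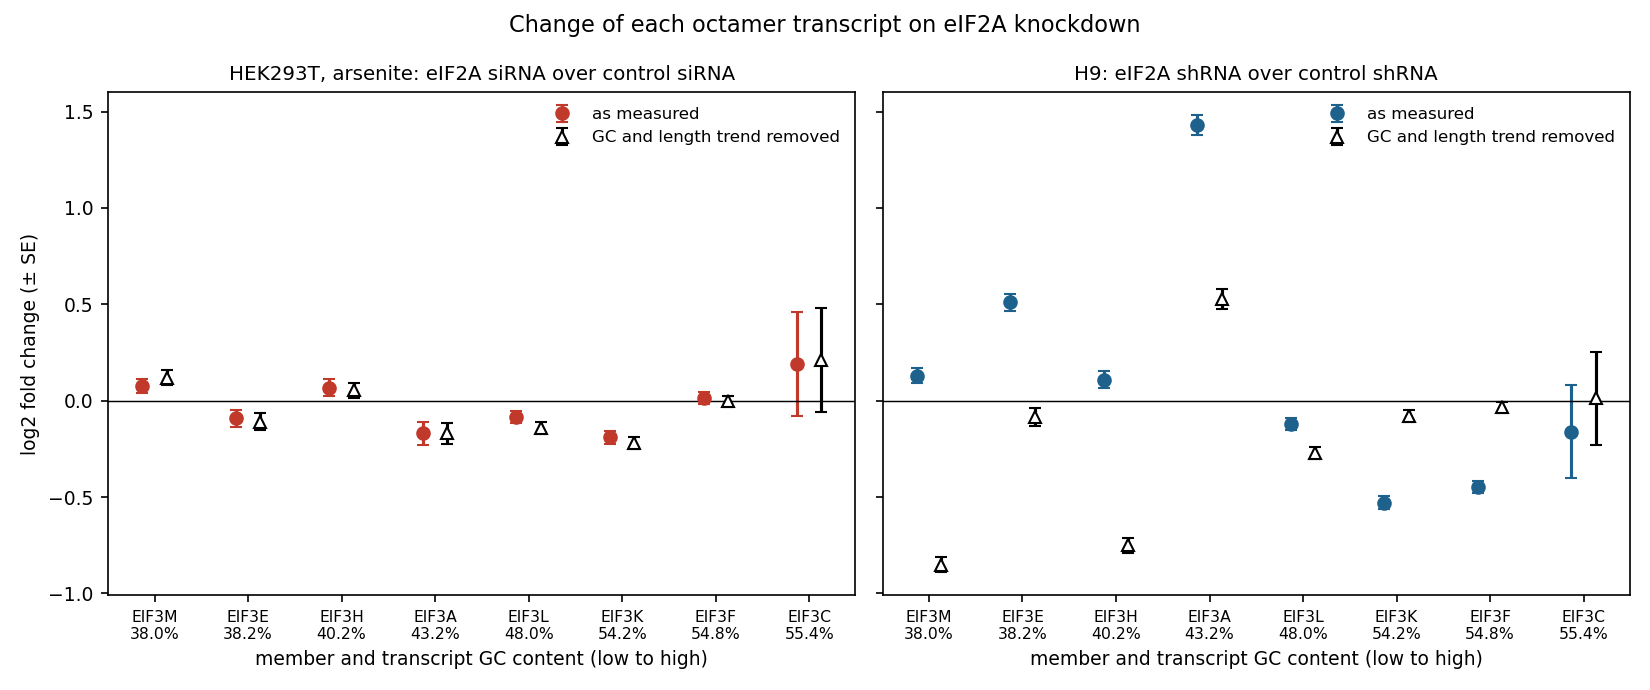
Log2 fold change (± SE) of each octamer transcript on eIF2A knockdown, as measured (filled) and after the GC and length trend was taken out (open triangles), ordered by transcript GC content from 38.0% (EIF3M) to 55.4% (EIF3C). In H9, EIF3A lies at 1.43 as measured and 0.53 with the trend removed, and EIF3H and EIF3M move to -0.75 and -0.85.

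The change on knockdown differed between the lines for 4 of the 8 members, in a test of the H9 change minus the HEK293T change. EIF3A (1.60 ± 0.079, adjusted p = 7.2e-18, edgeR) and EIF3E (0.60 ± 0.062, adjusted p = 3.3e-10, edgeR) were more positive in H9. EIF3F (-0.46 ± 0.044, adjusted p = 4.5e-11, edgeR) and EIF3K (-0.34 ± 0.048, adjusted p = 1.5e-07, edgeR) were more negative there. The difference was not called for EIF3H (0.041 ± 0.060), EIF3M (0.053 ± 0.054), EIF3L (-0.033 ± 0.044) and EIF3C (-0.35 ± 0.36), with adjusted p between 0.42 and 0.60. With DESeq2's size factors EIF3L was called as well (-0.19 ± 0.047, adjusted p = 0.00048, edgeR), and with upper-quartile scaling EIF3M was (0.14, adjusted p = 0.03, edgeR). Thus 2 members were more positive and 2 more negative in H9. Over all genes 58.1% were called, 31.1% (4532 genes) more positive in H9 and 27% (3935 genes) more negative, a split that became 3730 and 5051 genes with DESeq2's size factors. With the GC and length trend removed, EIF3A still differed (0.70 ± 0.076), EIF3E and EIF3F no longer did (0.028 and -0.031), and EIF3K turned to 0.14 ± 0.043. EIF3H (-0.81 ± 0.055), EIF3M (-0.97 ± 0.054) and EIF3L (-0.13 ± 0.043) were then called more negative in H9. In that fit 42.8% of all genes were called, 18.4% more positive and 24.3% more negative. The coding trend called EIF3A more positive and 6 members more negative, where it called 44.2% of all genes, 18.1% more positive and 26.1% more negative.

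Likeness between members was measured on log2 CPM centred within each line, as the root-mean-square (rms) difference over the 8 libraries, and is given as a description. EIF3H and EIF3M were the most alike pair, at 0.0464, followed by EIF3F and EIF3K, at 0.0813. EIF3A and EIF3K were the least alike, at 0.696. The close pairs crossed the modules in the case of F and K and lay within one in the case of H and M. These distances still hold the GC and length trend, and its part in them was not tested. Transcript GC content was alike within both pairs, at 54.8% and 54.2% for F and K and 40.2% and 38.0% for H and M. EIF3E, at 38.2%, was less close to EIF3M (0.15). Among 8264 genes outside eIF3 with at least 10 CPM, the nearest to the mean profile of the octamer were RFFL (0.0138), SUPT7L (0.0188), DNAJC14 (0.0213), CHEK2 (0.0213) and UQCRC2 (0.0222). These were genes that moved little, with log2 fold changes of 0.10 to 0.14 in H9. The mean profile averages all 8 members, whose H9 changes went both ways, from -0.53 to 1.43. A gene near it need not move like any single member. The genes nearest to single members were EML4 for EIF3A (0.0242), BBS4 for EIF3E (0.0224), ZMIZ1 for EIF3H (0.0195) and ATXN1L for EIF3M (0.0133). TUFM was nearest to EIF3K (0.0123), PSMD3 to EIF3F (0.00998), HMGXB3 to EIF3L (0.0135) and SNRNP35 to EIF3C (0.0687).

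The 5 subunits attached to the octamer also split in H9. EIF3J, the loosely bound subunit near the mRNA channel, measured 45.9 and 46.7 CPM with eIF2A shRNA and 22.6 and 23.0 CPM with control shRNA. Its knockdown pair was above both controls (1.02 ± 0.064, adjusted p = 4.1e-16, edgeR). EIF3G (-0.52 ± 0.045), EIF3I (-0.44 ± 0.031) and EIF3D, the cap-binding subunit (-0.28 ± 0.036), were called lower, and EIF3B, which holds G and I, was not called (-0.0072 ± 0.031, adjusted p = 0.85, edgeR). Of all genes, 37% were called higher in H9 and 34.3% lower. With the trend removed EIF3J (0.28) and EIF3B (0.22) were called higher, EIF3I (-0.25) and EIF3D (-0.12) lower, and EIF3G was not called (0.05, adjusted p = 0.26, edgeR). In that fit 21.9% of all genes were called higher and 27.9% lower. In HEK293T, 4 of the 5 were called lower by small amounts, EIF3G the most (-0.29 ± 0.043, adjusted p = 4.3e-05, edgeR), followed by EIF3B (-0.12 ± 0.031), EIF3I (-0.11 ± 0.030) and EIF3D (-0.094 ± 0.034). EIF3J was not called there (0.10 ± 0.059, adjusted p = 0.21, edgeR). Of all genes, 14.7% were called lower in that comparison.

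The other complexes of PCI and MPN subunits also held genes that went either way in H9, where 37% of all genes were called higher and 34.3% lower. Of the 9 proteasome lid genes, which encode the part that deubiquitinates substrates, H9 had 4 called higher and 4 lower, with a median of -0.0045, and SDs across genes of 0.52 for the lid and 0.63 for the octamer. PSMD12 rose most in H9 (0.96 ± 0.058) and PSMD8 fell most (-0.55 ± 0.032). With the trend removed the lid had 2 called higher and 4 lower, in a fit that called 21.9% of all genes higher and 27.9% lower. In HEK293T the lid had 3 called higher and 1 lower with a median of 0.063, from SEM1 (0.33 ± 0.058) to PSMD13 (-0.13 ± 0.033), where 14.1% of all genes were called higher and 14.7% lower. Of the 10 COP9 signalosome genes, which encode the complex that removes NEDD8 from cullins, H9 had 4 called higher and 6 lower with a median of -0.25, from COPS2 (0.94 ± 0.096) to COPS7A (-1.43 ± 0.054), and 2 higher and 4 lower with the trend removed. In HEK293T that complex had 5 called higher and 3 lower with a median of 0.12, from COPS4 (0.39 ± 0.059) to COPS2 (-0.27 ± 0.094).

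Of 15 partners of eIF3 in the 43S and 48S initiation complexes, H9 had 10 called higher and 3 lower, with a median of 0.57 against 0.024 over all genes, of which 37% were called higher and 34.3% lower. EIF4G3, a scaffold of the cap-binding complex, rose most (1.41 ± 0.073) and EIF1, a guard of start codon choice, fell most (-0.44 ± 0.031). With the trend removed the partners had 7 called higher and 6 lower, with a median of 0.045, against 21.9% and 27.9% of all genes. In HEK293T, where 14.1% of all genes were called higher and 14.7% lower, they had 6 called higher and 1 lower with a median of 0.081. They ran from EIF4B (0.26 ± 0.036), a helper of the RNA helicase eIF4A, to DDX3X (-0.20 ± 0.049), itself a helicase. Of 12 TOP mRNAs outside eIF3 and the ribosomal proteins, H9 had 5 called higher and 7 lower with a median of -0.12, from NAP1L1 (0.73 ± 0.041) to RACK1 (-0.59 ± 0.028), and 3 higher and 7 lower with the trend removed. In HEK293T the TOP list had 5 called higher and 2 lower with a median of 0.0043, from TPT1 (0.29 ± 0.030) to EEF1D (-0.16 ± 0.032). EIF4B belongs to both lists.

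**Figure D5:**
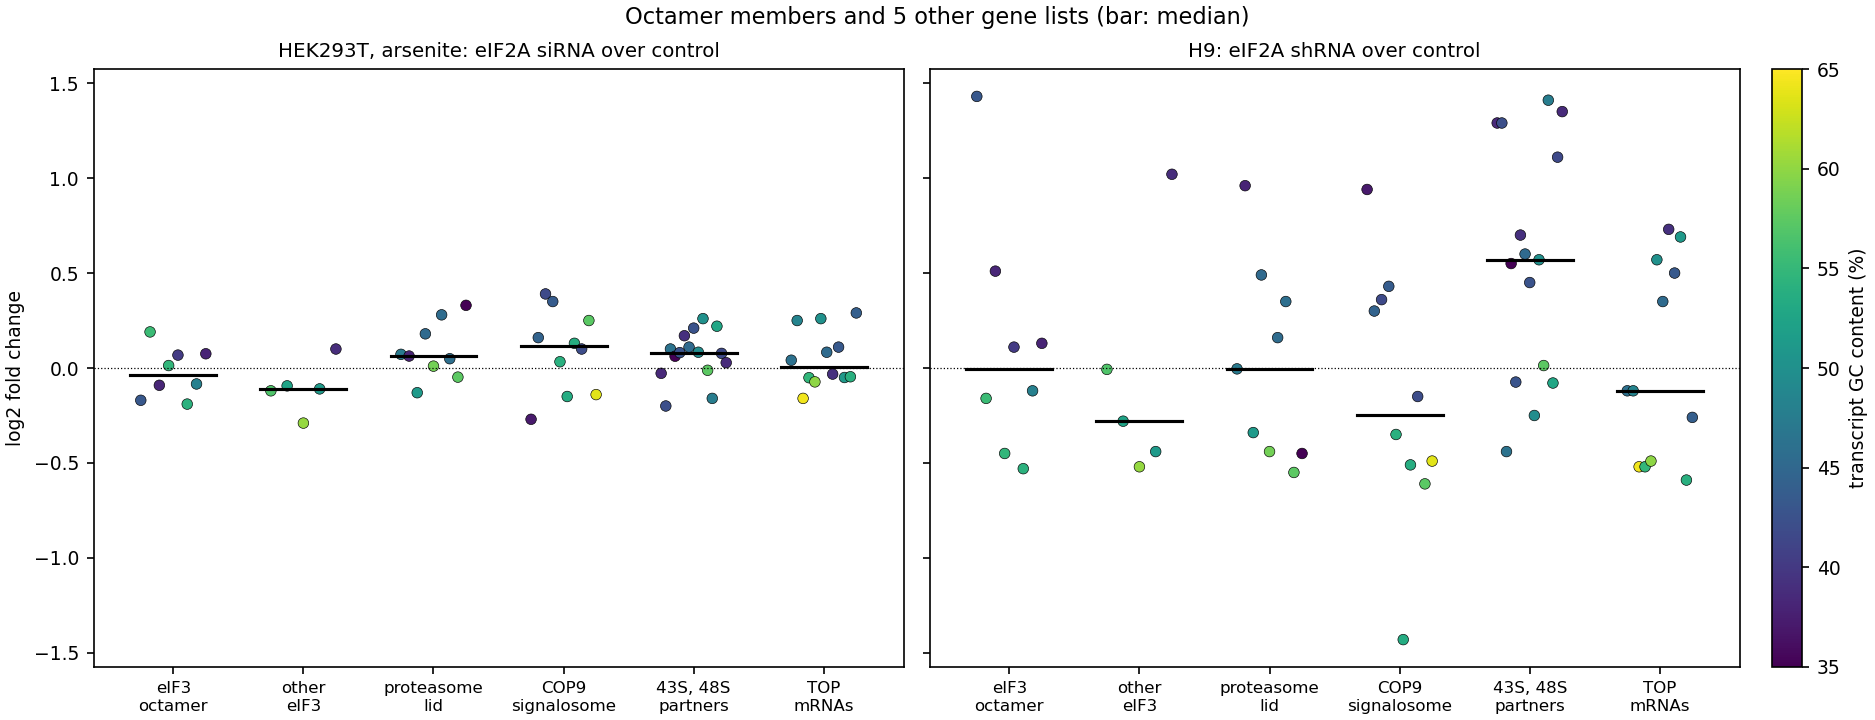
Log2 fold change on eIF2A knockdown of the octamer members and of 5 other gene lists, 1 point per gene coloured by transcript GC content, with a bar at the median, in HEK293T with arsenite and in H9. In H9 every list holds genes on both sides of 0, the darker low-GC points lie mostly higher, and the octamer's median of -0.0046 is close to that of the proteasome lid (-0.0045). Without EIF3C, which had few reads, the octamer's median in H9 was 0.11.

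Some reads of EIF3L, EIF3M, EIF3H and EIF3A may come from other genes. In the GRCh38 annotation, 41.1% of the exonic bases of EIF3L are shared with AL022311.1 on the same strand and 10.7% with ANKRD54 on the opposite strand. EIF3M shares 10% of its exonic bases with CCDC73, EIF3H 1.7% with UTP23 and EIF3A 0.9% with NANOS1, each on the opposite strand. These are shares of the exons of all annotated isoforms of a gene together, not of the counted transcript. The kit marks strand, but no source used here says whether counting used it, so these reads cannot be told apart.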

How the data were processed

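Libraries were made with a stranded poly(A) kit, per the labels' protocols, trimmed with cutadapt and aligned with STAR 2.5.2b to hg19, per the submitters' processing notes. The authors deposited raw, unnormalized counts per RefSeq accession. How reads were counted (program, strand setting, annotation) is not given in the sources used here. Symbols for 18888 accessions came from RefSeq and for 225 from GENCODE, and 192 had none.

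The tests used edgeR 4.0.16 under R 4.3.3: filterByExpr, TMM, 4 group means over 8 libraries (4 residual degrees of freedom), robust quasi-likelihood F test, two-sided, Benjamini-Hochberg adjustment over 14565 genes. SE came from F. GC and length trends were fitted per library with mgcv 1.9.3 and entered as offsets. The steps were tested on simulated data. Alternatives used DESeq2 1.42.0, limma 3.58.1 and the settings named in the closing section.

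The members were taken by gene name, but they and the lists were chosen with earlier results of these data known. SEM1 had 2 accessions, of which the 1 that passed the filter was used. Named were EIF2A, EIF3CL, all eIF3 subunits, each list's largest called rise and fall per line, the 5 genes nearest to the octamer mean and the 1 nearest to each member, and marker genes for the samples' identity. The ribosome profiling in the series' design was not analysed here.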

Additional observations from a re-analysis of the deposited data

Results flagged for a closer look

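For 4 octamer members the change on eIF2A knockdown differed between the lines by a test of the difference itself (H9 change minus HEK293T change, edgeR). These differences were 1.60 for EIF3A, 0.60 for EIF3E, -0.46 for EIF3F and -0.34 for EIF3K. EIF3A was higher with knockdown in H9 (1.43) and slightly lower in HEK293T (-0.17), and EIF3E was higher in H9 (0.51) and at -0.091, not called, in HEK293T. EIF3F was lower in H9 (-0.45) and at 0.013, not called, in HEK293T, and EIF3K was lower in both lines (-0.53 in H9 and -0.19 in HEK293T). With the GC and length trend removed the difference was 0.70 for EIF3A, 0.028 for EIF3E, -0.031 for EIF3F and 0.14 for EIF3K. Only the HEK293T libraries carried arsenite, and the lines also differed in the kind of small RNA, so these cannot be told apart.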

How the results depend on the processing

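EIF3A was called higher in H9 and EIF3K lower in HEK293T under every alternative run. The counts and medians that moved by over 1.5 times or by more than the replicate spread were as follows. DESeq2's size factors gave 2 members called higher in H9, medians of -0.16 in H9 and -0.15 for the difference between the lines, called EIF3L's difference (-0.19), and turned EIF3H (-0.05) and EIF3M (-0.032) in H9 and their differences (-0.12 and -0.10). That scaling moved the median of all genes in H9 to -0.13, against 0.024 with TMM, and relative to it EIF3H was at 0.075 and EIF3M at 0.094, against 0.085 and 0.10 with TMM. DESeq2's own test gave the same H9 values and 2742 genes called in HEK293T, against 4182 in edgeR, with 1 member lower. Of all tested genes, 3389 had no adjusted p there, EIF3C among them. The edgeR test with DESeq2's size factors called 4553 genes higher and 6124 lower in H9, against 5389 and 4991 with TMM. Upper-quartile scaling gave medians of 0.066 in H9 and 0.086 for the difference, and EIF3L's difference became 0.05. A filter of at least 5 CPM in 2 libraries dropped EIF3C, with medians of -0.083 in HEK293T, 0.16 in H9 and 0.089 for the difference, and 0.015 for EIF3L's difference. An adjusted p under 0.01 left 1 member lower in HEK293T. With limma-voom, no filter on low counts, or only the 4 libraries of a line, no count or median moved past these limits, though EIF3L in HEK293T lost its call without the filter (adjusted p = 0.057) and in the 4-library fit (adjusted p = 0.13), both in edgeR.

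With the trend removed, 1 member was called higher in each line, the medians were -0.081 in H9 and -0.08 for the difference, and signs changed for EIF3F in HEK293T (-0.0036), for EIF3C (0.012), EIF3E (-0.085), EIF3H (-0.75) and EIF3M (-0.85) in H9, and for the differences of EIF3H (-0.81), EIF3K (0.14) and EIF3M (-0.97). The coding trend, chosen after seeing the data, gave 1 member higher and 6 lower in H9 and in the difference, with medians of -0.37 and -0.33, where 54.7% and 44.2% of all genes were called. Signs changed for EIF3H in HEK293T (-0.009), for EIF3E (-0.35), EIF3H (-0.39) and EIF3M (-0.67) in H9, and for their differences (-0.27, -0.38 and -0.72). The cause was not tested. Summing EIF3C and EIF3CL gave medians of 0.048 in H9 and 0.047 for the difference, and -0.066 in HEK293T and 0.054 for the difference of the summed gene.

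Libraries with the same set number did not deviate together (correlations of -0.015 in HEK293T and 0.0048 in H9), so the labels' numbers were not taken as pairs. The set number as a replicate block moved no count of members past these limits (3847 genes called in HEK293T, 10281 in H9, 8327 for the difference) and ended the call of EIF3L in HEK293T (-0.084, adjusted p = 0.094, edgeR). It changed no other call of a member. With the block and the trend together, 1 member was called higher in each line, the medians were -0.082 in H9 and -0.08 for the difference, and EIF3K in H9 lost its call (-0.078, adjusted p = 0.071, edgeR). Signs changed as with the trend alone: EIF3F -0.0036 in HEK293T, EIF3C 0.01, EIF3E -0.085, EIF3H -0.75 and EIF3M -0.85 in H9, and differences of -0.81 for EIF3H, 0.14 for EIF3K and -0.97 for EIF3M.

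With each library left out in turn, HEK293T had 0 to 1 members higher and 1 to 2 lower, the H9 median ran from -0.038 to 0.044, and EIF3H's difference from -0.03 to 0.11, with -0.0094 without HEK293T control siRNA replicate 2. The limits are 2 libraries a group, a HEK293T control pair that differed more than the others, counts of 21 to 49 for EIF3C, and transcript GC content and length taken from an annotation rather than from the isoforms present.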
